A study of Homo sapiens with 5 samples.

Results

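The transcripts described here are those of 10 genes that are used to tell naive from primed human pluripotent cells, or that belong to the same regulatory family: KLF2, KLF4, KLF5, KLF6, KLF17, DPPA3, DPPA5, ARGFX, ESRRB and TBX3. They were taken by symbol from a deposited table of 26506 genes, and each of the 10 had 1 row. The cells were H9, an established human embryonic stem cell line, and 5 libraries of poly(A)-selected RNA were sequenced, 1 per group. The groups were B3GALT5-/- cells (B3GALT5-KO) in 2iLAF medium, wild-type (WT) cells in 5iLAF medium, WT cells in 2iLAF medium, B3GALT5-KO cells in basal medium and WT cells in basal medium. The labels call the B3GALT5-KO 2iLAF and WT 5iLAF libraries naive, the WT 2iLAF library primed-naive and both basal libraries primed. B3GALT5 encodes a galactosyltransferase that makes the SSEA-3 glycolipid. The sources used here do not say whether the knockout line was 1 clone, for how long the cells were kept in each medium, or whether feeder cells were used. As each group was a single library, differences could not be checked against replicates, and nothing was tested.

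Krüppel-like factors (KLF) are transcription factors that bind GC-rich and CACCC sequences through zinc fingers at the C-terminus. In mouse embryonic stem cells Klf2, Klf4 and Klf5, together with Esrrb and Tbx3, belong to the network that holds the naive state, downstream of LIF and inhibition of MEK and GSK3. The human network differs: KLF17, DPPA5 and ARGFX are used as marks of human naive cells and of the preimplantation embryo, while KLF2 and ESRRB are described as low in the human epiblast. Several of these factors also act outside pluripotency, KLF2 in endothelium and lymphocytes, KLF4 and KLF5 in epithelia, KLF6 in many stromal and blood cells, and TBX3 in limb, heart and foregut.

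Values are deposited TPM, a measure of transcript abundance scaled for gene length and library. Differences are log2 ratios of TPM + 1, a scale that understates the change of genes near 0. Counts of higher and lower genes use a 2-fold size rule on that scale, over the 15761 genes that reached 1 TPM in at least 1 library. Libraries had between 13729 and 14156 genes at 1 TPM or more, and their 10 leading genes held between 6.37% and 8.20% of all TPM. Read depth is unknown. B3GALT5 itself, the targeted gene, stood at 1.17 TPM in B3GALT5-KO 2iLAF against 5.13 TPM in WT 2iLAF, and at 5.98 TPM in B3GALT5-KO basal against 9.31 TPM in WT basal, with 2.08 TPM in WT 5iLAF. Its RNA was present in both knockout libraries, and as the edited site is not stated, gene totals do not check the genotype labels. The 7 core pluripotency genes were all above 1 TPM in every library. In bulk RNA, such levels do not give the share of cells that were pluripotent. The 7 genes summed to 2535, 3076, 3605, 5191 and 5655 TPM in B3GALT5-KO 2iLAF, WT 5iLAF, WT 2iLAF, B3GALT5-KO basal and WT basal. Of the core genes 0 were higher and 3 lower in B3GALT5-KO 2iLAF over B3GALT5-KO basal, and 0 and 2 in WT 5iLAF over WT basal, DNMT3B and SOX2 being lower in both. In WT 2iLAF over WT basal 2 were higher (SOX2 and SALL4) and 3 lower, with NANOG at 16.5 against 171 TPM, TDGF1 at 69.2 against 519.5 TPM and POU5F1 at 1099 against 3350.3 TPM. Of 10 primed markers, the same 8 were lower in both libraries labelled naive over basal, and 5 were lower in WT 2iLAF over WT basal. Of all tested genes, 15.9% were higher and 11.8% lower in B3GALT5-KO 2iLAF over B3GALT5-KO basal. The shares were 10.7% and 11.4% in WT 5iLAF over WT basal, and 4.73% and 7.03% in WT 2iLAF over WT basal. Of the genes that mark human naive cells, KLF17, DPPA5 and ARGFX stayed below 1 TPM throughout, while 8 of 20 others, DNMT3L, SUSD2 and TFAP2C among them, were higher in both libraries labelled naive than in basal medium.

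Of the 10 genes, 7 reached 1 TPM in at least 1 library and 3 did not. KLF2, KLF4, KLF5, KLF6 and TBX3 were higher in both libraries labelled naive than in the basal library of the same genotype. KLF17, DPPA5 and ARGFX were near 0 in all 5 libraries, ESRRB did not exceed 1.08 TPM, and DPPA3 stayed between 0.79 and 4.1 TPM. WT cells in 2iLAF had high KLF4 and basal-like KLF2, KLF5, KLF6 and TBX3.

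**Figure D1:**
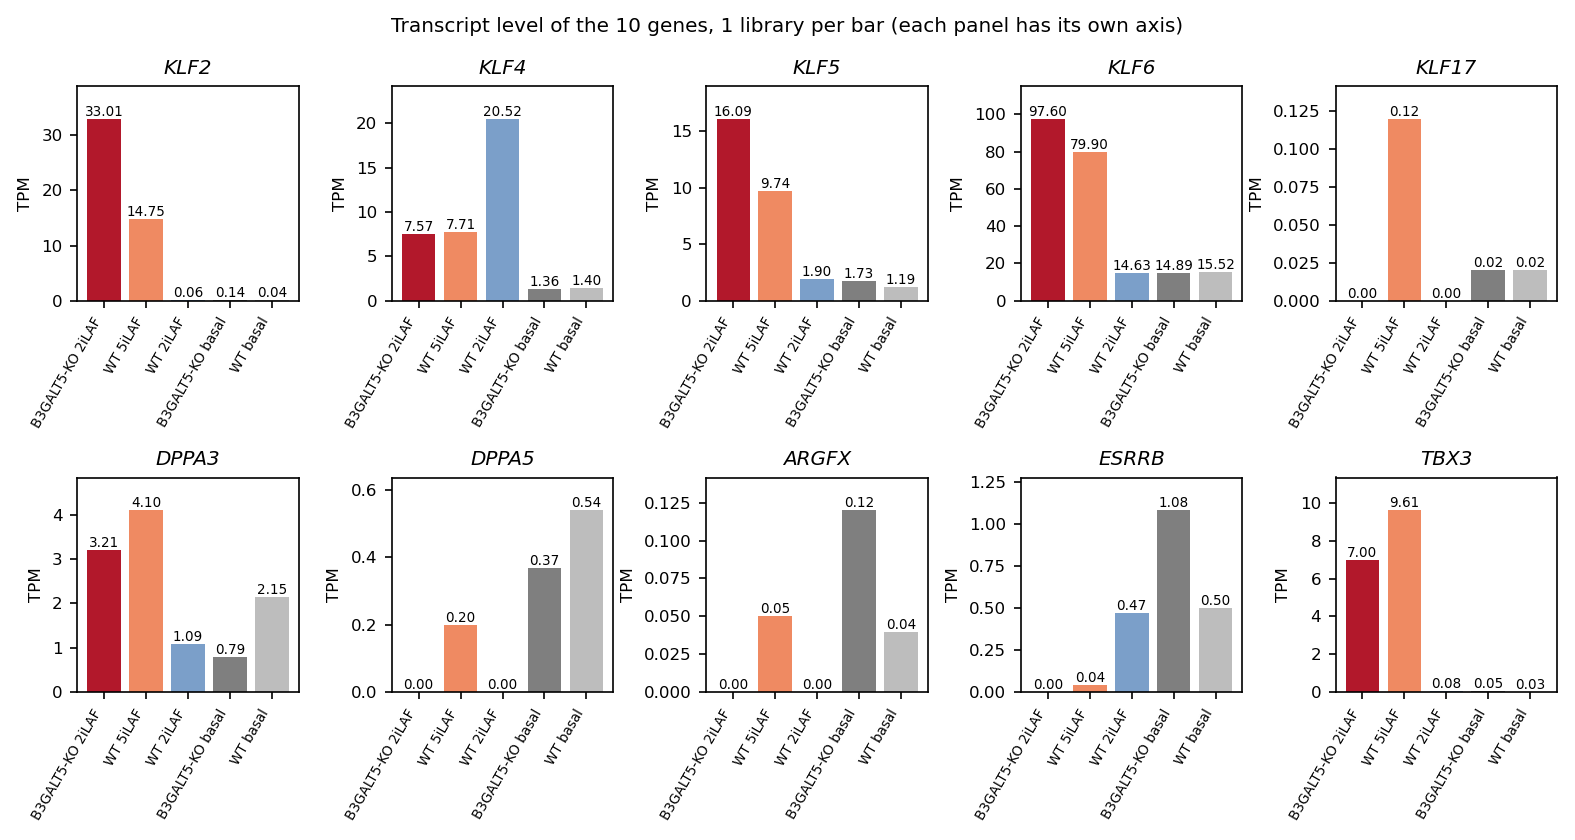
Deposited TPM of each of the 10 genes, with 1 bar per library and a separate axis for each gene. KLF2, KLF5, KLF6 and TBX3 are high in B3GALT5-KO 2iLAF and WT 5iLAF, KLF4 is highest in WT 2iLAF at 20.5 TPM, and KLF17 and ARGFX do not exceed 0.12 TPM.

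The start site windows of 4 genes are printed because they carry the contrast within the group: KLF2 and KLF4, which were highest in different libraries, and KLF17 and DPPA5, which were near 0. Each window runs from 250 bases before to 50 bases after an annotated start, 5′ to 3′ on the gene's strand, and comes from RefSeq on GRCh38.p14. The deposited values were made on hg19, so windows were matched by symbol only. Capitals mark GC boxes (GGGCGG or CCGCCC, both strands, overlapping matches kept). In KLF2 alone they also mark 1 match to a loose form of the MEF2 motif (CTA and TAG with any 4 bases between them). KLF2 lies at chr19:16324576-16324875 on the plus strand, KLF4 at chr9:107489720-107490019 on the minus strand, KLF17 at chr1:44118571-44118870 on the plus strand and DPPA5 at chr6:73354227-73354526 on the minus strand.
KLF2: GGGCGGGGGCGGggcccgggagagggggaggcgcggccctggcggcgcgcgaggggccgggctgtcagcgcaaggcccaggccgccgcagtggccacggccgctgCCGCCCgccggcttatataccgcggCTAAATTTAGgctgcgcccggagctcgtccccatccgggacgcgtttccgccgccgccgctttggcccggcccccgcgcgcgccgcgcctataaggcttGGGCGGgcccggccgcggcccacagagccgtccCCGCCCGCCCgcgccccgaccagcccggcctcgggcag
KLF4: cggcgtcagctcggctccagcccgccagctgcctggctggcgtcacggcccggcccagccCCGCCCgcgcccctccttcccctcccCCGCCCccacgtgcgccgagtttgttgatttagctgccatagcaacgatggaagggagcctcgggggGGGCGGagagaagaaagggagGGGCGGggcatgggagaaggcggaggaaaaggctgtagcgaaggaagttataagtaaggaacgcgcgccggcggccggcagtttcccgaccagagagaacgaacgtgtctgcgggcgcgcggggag
KLF17: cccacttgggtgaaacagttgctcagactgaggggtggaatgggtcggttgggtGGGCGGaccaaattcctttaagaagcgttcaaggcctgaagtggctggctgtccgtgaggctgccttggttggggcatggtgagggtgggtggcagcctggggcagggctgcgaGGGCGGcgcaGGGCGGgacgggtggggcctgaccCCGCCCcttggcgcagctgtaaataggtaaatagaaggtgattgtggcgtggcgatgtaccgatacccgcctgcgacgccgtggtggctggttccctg
DPPA5: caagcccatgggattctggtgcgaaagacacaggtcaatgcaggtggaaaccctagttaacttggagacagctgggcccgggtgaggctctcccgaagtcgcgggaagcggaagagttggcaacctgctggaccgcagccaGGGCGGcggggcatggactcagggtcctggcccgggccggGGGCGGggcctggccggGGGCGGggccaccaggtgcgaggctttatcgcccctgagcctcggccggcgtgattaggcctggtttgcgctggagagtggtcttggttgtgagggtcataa

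KLF2, a factor of the mouse naive network and of endothelial quiescence, stood at 33.0 TPM in B3GALT5-KO 2iLAF, 14.8 TPM in WT 5iLAF, 0.06 TPM in WT 2iLAF, 0.14 TPM in B3GALT5-KO basal and 0.04 TPM in WT basal. It was thus present in the libraries labelled naive and near 0 in the other 3. The log2 ratio was 4.90 for B3GALT5-KO 2iLAF over B3GALT5-KO basal and 3.92 for WT 5iLAF over WT basal. It was 0.03 for WT 2iLAF over WT basal. KLF2 was also the 1 member that differed 2-fold between the libraries labelled naive, with a log2 ratio of 1.11 for B3GALT5-KO 2iLAF over WT 5iLAF. With a pseudocount of 5 TPM that ratio was 0.94, short of 2-fold. Among the genes tested, 70.7% lay below KLF2 in B3GALT5-KO 2iLAF and 52.4% in WT 5iLAF, so its level there was middling.

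KLF4, a reprogramming factor that is also high in epithelia, stood at 7.57 TPM in B3GALT5-KO 2iLAF, 7.71 TPM in WT 5iLAF, 20.5 TPM in WT 2iLAF, 1.36 TPM in B3GALT5-KO basal and 1.40 TPM in WT basal. It was low in both basal libraries, and its order differed from that of the other KLF members, with WT 2iLAF first. Log2 ratios were 1.86 for B3GALT5-KO 2iLAF over B3GALT5-KO basal, 1.86 for WT 5iLAF over WT basal and 3.16 for WT 2iLAF over WT basal. Within 2iLAF, B3GALT5-KO was lower than WT, with a log2 ratio of -1.33, and WT 5iLAF was lower than WT 2iLAF, at -1.30. The libraries labelled naive differed by -0.02. With a pseudocount of 5 TPM the ratios in those libraries against basal were 0.98 and 0.99 (B3GALT5-KO and WT), just under 2-fold.

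KLF5, a factor of epithelia and of the early trophectoderm, stood at 16.1 TPM in B3GALT5-KO 2iLAF, 9.74 TPM in WT 5iLAF, 1.90 TPM in WT 2iLAF, 1.73 TPM in B3GALT5-KO basal and 1.19 TPM in WT basal. The other 3 libraries were close together and below both libraries labelled naive. Log2 ratios were 2.65 for B3GALT5-KO 2iLAF over B3GALT5-KO basal, 2.29 for WT 5iLAF over WT basal and 0.41 for WT 2iLAF over WT basal.

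KLF6, a broadly expressed factor first described in liver stellate cells and placenta, was the most abundant member. It stood at 97.6 TPM in B3GALT5-KO 2iLAF, 79.9 TPM in WT 5iLAF, 14.6 TPM in WT 2iLAF, 14.9 TPM in B3GALT5-KO basal and 15.5 TPM in WT basal. The last 3 libraries were nearly level. Log2 ratios were 2.63 for B3GALT5-KO 2iLAF over B3GALT5-KO basal, 2.29 for WT 5iLAF over WT basal and -0.08 for WT 2iLAF over WT basal. KLF6 ranked first among 17 KLF genes in both libraries labelled naive, where it held 30.6% (B3GALT5-KO 2iLAF) and 28.7% (WT 5iLAF) of the family's TPM. In the WT 2iLAF, B3GALT5-KO basal and WT basal libraries KLF6 held 8.78%, 10.9% and 11.2%, and KLF16 ranked first.

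KLF17, a KLF factor of human preimplantation embryos and naive cells, was listed at 0 in B3GALT5-KO 2iLAF, 0.12 TPM in WT 5iLAF, 0 in WT 2iLAF, 0.02 TPM in B3GALT5-KO basal and 0.02 TPM in WT basal. No library reached 1 TPM, so KLF17 entered no count. Its window held 4 GC boxes, as many as that of KLF4.

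TBX3, a T-box repressor, stood at 7.0 TPM in B3GALT5-KO 2iLAF, 9.61 TPM in WT 5iLAF, 0.08 TPM in WT 2iLAF, 0.05 TPM in B3GALT5-KO basal and 0.03 TPM in WT basal. The 3 low libraries were all under 0.1 TPM. Log2 ratios were 2.93 for B3GALT5-KO 2iLAF over B3GALT5-KO basal, 3.36 for WT 5iLAF over WT basal and 0.07 for WT 2iLAF over WT basal. Unlike KLF2, KLF5 and KLF6, TBX3 was lower in B3GALT5-KO 2iLAF than in WT 5iLAF, at a log2 ratio of -0.41.

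ESRRB, an orphan nuclear receptor of the mouse naive network, was listed at 0 in B3GALT5-KO 2iLAF, and stood at 0.04 TPM in WT 5iLAF, 0.47 TPM in WT 2iLAF, 1.08 TPM in B3GALT5-KO basal and 0.50 TPM in WT basal. It was the 1 member that was lowest in the libraries labelled naive. Its log2 ratio of -1.06 for B3GALT5-KO 2iLAF over B3GALT5-KO basal passed the size rule only just, and did not do so with a pseudocount of 5 TPM (-0.28) or in FPKM (-0.63). WT 5iLAF over WT basal gave -0.53. ARGFX, a PRD-like homeobox gene of the cleavage-stage embryo, was listed at 0 in B3GALT5-KO 2iLAF, and stood at 0.05 TPM in WT 5iLAF, 0 in WT 2iLAF, 0.12 TPM in B3GALT5-KO basal and 0.04 TPM in WT basal.

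DPPA3, also called STELLA, protects DNA methylation in the mouse zygote. It stood at 3.21 TPM in B3GALT5-KO 2iLAF, 4.1 TPM in WT 5iLAF, 1.09 TPM in WT 2iLAF, 0.79 TPM in B3GALT5-KO basal and 2.15 TPM in WT basal. It was low everywhere, and WT basal lay closer to the libraries labelled naive than B3GALT5-KO basal did. The log2 ratio was 1.23 for B3GALT5-KO 2iLAF over B3GALT5-KO basal and 0.70, short of 2-fold, for WT 5iLAF over WT basal. Within 2iLAF, B3GALT5-KO over WT gave 1.01, and it was 0.96 with median-ratio scaling and 0.95 with trimmed-mean scaling. DPPA5, a KH-domain protein of early embryos, was listed at 0 in B3GALT5-KO 2iLAF and WT 2iLAF, and stood at 0.20 TPM in WT 5iLAF, 0.37 TPM in B3GALT5-KO basal and 0.54 TPM in WT basal. RefSeq names 12 DPPA3 and 4 DPPA5 pseudogenes, and also 4 of KLF2, 2 of KLF17, 2 of ARGFX and 1 of KLF4. Of these, 1 was in the deposited table (an ARGFX copy, at 0), so reads that fit both a gene and a copy make single values uncertain, most of all for the low DPPA3 and DPPA5.

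**Figure D2:**
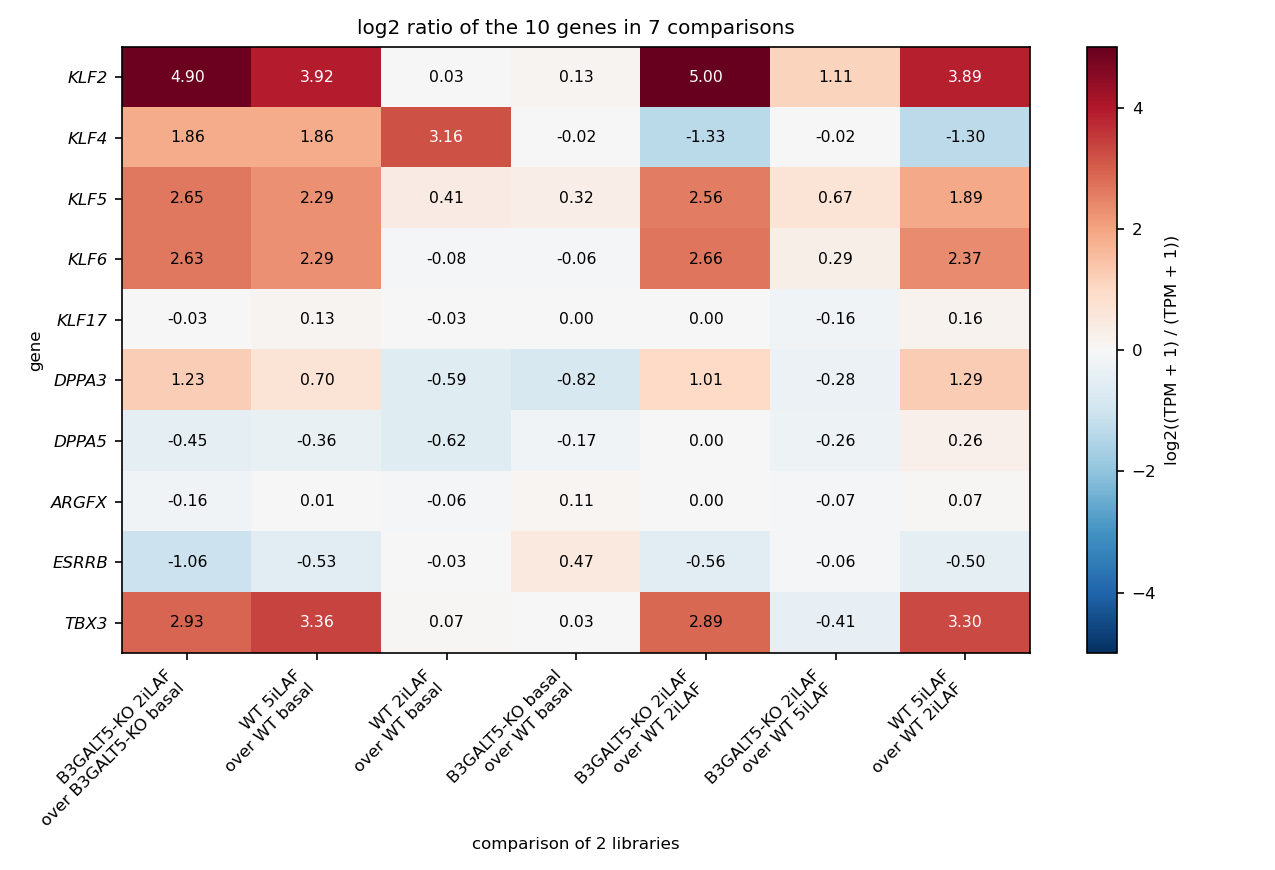
Log2 ratio of TPM + 1 for each of the 10 genes (rows) in 7 comparisons of 2 libraries (columns), with the value printed in each cell. The columns that compare a library labelled naive with basal or with WT 2iLAF are red for KLF2, KLF5, KLF6 and TBX3, and KLF4 alone stands out in WT 2iLAF over WT basal, at 3.16.

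Counted by comparison, B3GALT5-KO 2iLAF over B3GALT5-KO basal had 6 of 10 members higher, where 15.9% of all tested genes were higher, and 1 lower (ESRRB), where 11.8% were. WT 5iLAF over WT basal had 5 higher, against 10.7% of tested genes, and 0 lower, against 11.4%. KLF2, KLF4, KLF5, KLF6 and TBX3 were the 5 members that were higher in both of these comparisons, which share no library, and DPPA3 was the sixth in B3GALT5-KO. WT 2iLAF over WT basal had 1 higher (KLF4), against 4.73% of tested genes, and 0 lower, against 7.03%. The median log2 ratio over the 10 members was 1.55, 1.28 and -0.03 in these 3 comparisons, beside 0.02, -0.06 and -0.13 over all tested genes. The member counts and medians include KLF17, DPPA5 and ARGFX, which did not pass the filter and could not be called. Medians of further lists are likewise over all their genes in the table, so they and the tested genes are unlike sets. The members were chosen with results of these data known, so their counts describe the genes and say nothing about chance. KLF2 and TBX3 reached 1 TPM only in the libraries labelled naive, and ESRRB only in B3GALT5-KO basal. These members thus passed the filter only through the libraries where they were high.

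In basal medium no member passed the size rule for B3GALT5-KO over WT, and few of all tested genes did. There, 0 of 10 were higher, where 0.704% of tested genes were, and 0 lower, where 1.05% were. The ratio of largest size was that of DPPA3, at -0.82, followed by ESRRB at 0.47 and KLF5 at 0.32. In 2iLAF, B3GALT5-KO over WT had 5 members higher (KLF2, KLF5, KLF6, DPPA3 and TBX3), where 16.6% of tested genes were higher, and 1 lower (KLF4), where 10.8% were. WT 5iLAF over WT 2iLAF gave the same 5 higher and KLF4 lower, where 12.2% and 9.54% of tested genes passed. Both comparisons share the WT 2iLAF library. B3GALT5-KO 2iLAF over WT 5iLAF had 1 higher (KLF2), where 4.90% were, and 0 lower, where 1.03% were. In that last comparison genotype and medium differ together and cannot be told apart.

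**Figure D3:**
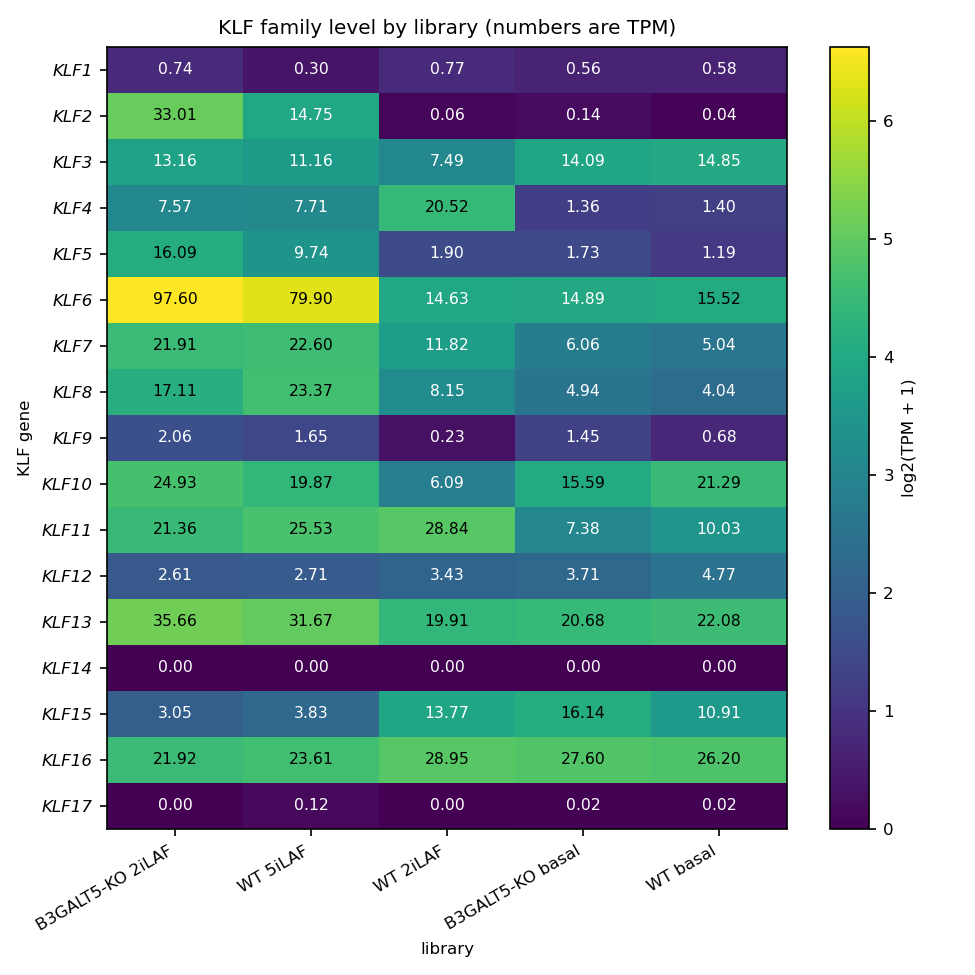
TPM of 17 KLF genes (rows, by number) in 5 libraries (columns), coloured by log2(TPM + 1) with TPM printed. KLF6 is the brightest row in B3GALT5-KO 2iLAF and WT 5iLAF, at 97.6 and 79.9 TPM, while KLF14 is at 0 and KLF17 near 0 throughout.

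The 12 other KLF genes in the table had lower median ratios than the members in both libraries labelled naive over basal. Their median was above that of the members in WT 2iLAF over WT basal, at 0.07 against -0.03. It was also above in B3GALT5-KO 2iLAF over WT 5iLAF, at -0.02 against -0.06. Both lists were chosen with results of these data known. In B3GALT5-KO 2iLAF over B3GALT5-KO basal 3 of the 12 were higher and 1 lower, where 15.9% and 11.8% of tested genes were. In WT 5iLAF over WT basal also 3 and 1 passed, where 10.7% and 11.4% of tested genes did. The list medians were 0.24 and -0.05. These shares of tested genes apply to the further lists in the same comparisons too. For WT 2iLAF over WT basal the shares are 4.73% higher and 7.03% lower. KLF7, KLF8 and KLF11 were the 3 and KLF15 the 1 in both libraries labelled naive over basal. KLF8 stood at 17.1 TPM in B3GALT5-KO 2iLAF against 4.94 TPM in B3GALT5-KO basal, and at 23.4 TPM in WT 5iLAF against 4.04 TPM in WT basal. KLF15, a metabolic regulator of liver and muscle, stood at 3.05 against 16.1 TPM and at 3.83 against 10.9 TPM in the same pairs. KLF11, a TGF-beta-induced factor, was higher in WT 2iLAF too, at 28.8 TPM against 10.03 TPM in WT basal, whereas KLF10, also induced by TGF-beta, was lower there, at 6.09 against 21.3 TPM. All KLF genes together summed to 319 TPM in B3GALT5-KO 2iLAF, 279 in WT 5iLAF, 167 in WT 2iLAF, 136 in B3GALT5-KO basal and 139 in WT basal. The 5 KLF members supplied 154, 112, 37.1, 18.1 and 18.2 TPM of these sums.

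SP factors share the KLF zinc fingers. Of 9, 3 were higher and 1 lower in B3GALT5-KO 2iLAF over B3GALT5-KO basal, and 2 higher and 1 lower in WT 5iLAF over WT basal (medians 0.30 and 0.18). SP5, a target of WNT signalling, stood at 122 TPM in B3GALT5-KO 2iLAF, 109.6 in WT 5iLAF and 1.02 in WT 2iLAF. In basal medium it stood at 0.15 TPM in B3GALT5-KO and was listed at 0 in WT. SP1, the ubiquitous member, lay between 32.6 and 42.9 TPM in all 5 libraries.

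TBX3 was not alone among T-box genes. Of 16 others, 8 were higher in B3GALT5-KO 2iLAF over B3GALT5-KO basal and 6 in WT 5iLAF over WT basal, with 0 lower in either and medians of 0.89 and 0.61. T (brachyury, a primitive streak factor) stood at 84.5 TPM in B3GALT5-KO 2iLAF and 118 TPM in WT 5iLAF, against 0.09 TPM in B3GALT5-KO basal and 0.21 TPM in WT basal. EOMES, which acts with it in mesendoderm, stood at 51.0 and 70.2 TPM against 0.06 and 0.12 TPM in the same libraries. TBX4, of hindlimb and allantois, stood at 22.3 TPM in B3GALT5-KO 2iLAF and 2.55 TPM in WT 5iLAF. In WT 2iLAF over WT basal 0 of the 16 passed in either direction.

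Relatives of DPPA3, DPPA5 and ESRRB followed other courses. DPPA4, a chromatin protein of pluripotent cells and the most abundant of these genes, stood at 265 TPM in B3GALT5-KO 2iLAF, 320 in WT 5iLAF, 282 in WT 2iLAF, 571 in B3GALT5-KO basal and 658 in WT basal. It was lower than in basal medium in all 3 medium comparisons. DPPA2, its partner, was low in WT 2iLAF, at 1.95 TPM against 9.09 TPM in WT basal. ESRRA, a related receptor that acts in energy metabolism, lay between 17.4 and 36.7 TPM. Genes of the cleavage stage resembled ARGFX: of 10 in the table, 2 reached 1 TPM in any library (CCNA1, at most 3.07 TPM, and MBD3L2, at most 1.00 TPM), and ZSCAN4 did not exceed 0.16 TPM.

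Other markers of human naive cells were mixed, as the 10 genes were. Of 20, 12 reached 1 TPM in some library, 8 were higher in B3GALT5-KO 2iLAF over B3GALT5-KO basal and the same 8 in WT 5iLAF over WT basal, with 1 (VENTX) and 0 lower. Medians over all 20 were 0.35 and 0.53. DNMT3L, a DNA methyltransferase cofactor, stood at 51.4 and 76.4 TPM in B3GALT5-KO 2iLAF and WT 5iLAF against 0.04 TPM in each basal library. SUSD2, a surface protein used to sort naive cells, stood at 15.4 and 14.8 TPM against 4.85 TPM in B3GALT5-KO basal and 3.22 TPM in WT basal. TFCP2L1, a naive factor downstream of STAT3 in mouse, did not exceed 2.77 TPM, KHDC3L did not exceed 0.25 TPM, and TRIM60 and ZNF729 were listed at 0 in all 5. In WT 2iLAF over WT basal 4 were higher and 1 lower, among them TFAP2C at 36.5 against 3.72 TPM.

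Genes that act upstream of KLF factors in mouse cells were read from 2 lists. LIF raises Klf4 through STAT3, and of 10 genes of that pathway 4 were higher in B3GALT5-KO 2iLAF over B3GALT5-KO basal, 5 in WT 5iLAF over WT basal and 1 in WT 2iLAF over WT basal, with 0, 0 and 2 lower. IL6ST, the gp130 co-receptor, stood at 60.1 TPM in B3GALT5-KO 2iLAF, 32.0 in WT 5iLAF, 1.72 in WT 2iLAF, 2.68 in B3GALT5-KO basal and 2.96 in WT basal. SOCS3, the feedback inhibitor that STAT3 induces, stood at 69.5, 55.6, 27.1, 28.4 and 19.7 TPM in the same order. PIM1, a kinase gene that STAT3 induces, stood at 80.5, 88.0, 113, 91.4 and 41.1 TPM, and STAT3 itself at 92.1, 96.8, 74.4, 48.6 and 58.5 TPM. IL6ST was lowest and PIM1 highest in WT 2iLAF, where KLF4 was highest, and the part of this pathway in the KLF4 level was not tested. MEK5 and ERK5 raise KLF2 through MEF2 factors in endothelium. Of 8 genes of that pathway 0 were higher and 1 lower in B3GALT5-KO 2iLAF over B3GALT5-KO basal, and 1 higher and 1 lower in WT 5iLAF over WT basal. The higher one was MAPK7, which encodes ERK5, at 42.1 TPM in WT 5iLAF against 19.5 TPM in WT basal, and it stood at 31.5 TPM in B3GALT5-KO 2iLAF against 16.9 TPM in B3GALT5-KO basal. MEF2B was the lower one in both, at 0.21 against 20.9 TPM and, in WT 5iLAF, at 0 against 7.36 TPM.

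Markers of other cell types moved with KLF2, KLF5, KLF6 and TBX3. In bulk RNA, a change in the share of cells of a type and a change in RNA per cell cannot be told apart. Fibroblast and mesenchyme markers (10 genes) summed to 4105 TPM in B3GALT5-KO 2iLAF, 1189 in WT 5iLAF, 54.1 in WT 2iLAF, 38.6 in B3GALT5-KO basal and 28.6 in WT basal, and 9 of 10 were higher in the knockout pair and 8 of 10 in the WT pair. Endoderm markers (8 genes) summed to 1010, 1972, 5.14, 7.16 and 8.52 TPM in that order, with 8 and 7 higher. CER1 alone supplied 852 TPM of the endoderm sum in B3GALT5-KO 2iLAF and 1832 TPM in WT 5iLAF. COL1A1 (1630 and 827 TPM) and COL3A1 (1871 and 258 TPM) supplied most of the fibroblast sums in the same libraries. The part of these cell types in the 4 genes' levels was not tested.

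Granulocyte and myeloid markers (17 genes) summed to 1237 TPM in B3GALT5-KO 2iLAF, where 16 stood at or above 1 TPM and 0 at 0. They summed to 27.4 TPM in WT 5iLAF, where 6 of 17, S100A8 and FCGR3B among them, were at 0, and SPI1 and LYZ supplied 15.7 and 8.94 TPM. In WT 2iLAF, B3GALT5-KO basal and WT basal the sums were 2.36, 2.90 and 2.27 TPM. Of the 17, 16 were higher in B3GALT5-KO 2iLAF over B3GALT5-KO basal and 3 (LYZ, PTPRC and SPI1) in WT 5iLAF over WT basal. The part of these transcripts in the members' levels was not tested. Endothelium is an adult site of KLF2, and its markers (11 genes) summed to 37.2 TPM in B3GALT5-KO 2iLAF and 18.4 in WT 5iLAF, against 52.4 in B3GALT5-KO basal and 40.1 in WT basal, with 19.4 in WT 2iLAF. In B3GALT5-KO 2iLAF over B3GALT5-KO basal 0 were higher and 2 lower (KDR and TIE1), and in WT 5iLAF over WT basal 1 was higher (TEK) and the same 2 lower. KDR alone supplied 40.59 TPM of the endothelial sum in B3GALT5-KO basal and 27.99 TPM of that in WT basal. It stood at 19.33 TPM in B3GALT5-KO 2iLAF, 6.95 TPM in WT 5iLAF and 2.62 TPM in WT 2iLAF. The lower sums thus rest largely on KDR and do not show a fall of the list as a whole. TEK stood at 11.0 TPM in B3GALT5-KO 2iLAF, 5.48 in WT 5iLAF, 8.52 in WT 2iLAF, 6.19 in B3GALT5-KO basal and 1.93 in WT basal. EMCN was at 0 in all libraries, PECAM1 at most 0.66 TPM and CDH5 at most 0.45 TPM. The part of endothelial transcripts in the KLF2 level was not tested.

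WT 2iLAF, the library with the highest KLF4, stood apart in neuroectoderm markers (7 genes). They summed to 729 TPM there, against 26.8 in B3GALT5-KO 2iLAF, 43.5 in WT 5iLAF, 14.6 in B3GALT5-KO basal and 12.3 in WT basal. In WT 2iLAF over WT basal 5 of 7 were higher, where 4.73% of tested genes were higher and 7.03% lower. PAX6 and SOX1 were each at 0.27 TPM. Of 9 trophoblast and amnion markers, 3 were higher and 1 lower in WT 2iLAF over WT basal, with TFAP2A at 17.3 against 0.06 TPM. These markers were not particular to WT 2iLAF, as 4 were higher and 1 lower in each library labelled naive over basal. They summed to 153 TPM in B3GALT5-KO 2iLAF, 63.9 in WT 5iLAF, 53.1 in WT 2iLAF, 17.15 in B3GALT5-KO basal and 15.5 in WT basal. HAND1 alone stood at 135 TPM in B3GALT5-KO 2iLAF and 43.5 TPM in WT 5iLAF. The part of both lists in the KLF4 level was not tested. Of 8 germ cell markers, 3 were higher in each of the 3 comparisons with basal medium, with 1, 1 and 0 lower.

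**Figure D4:**
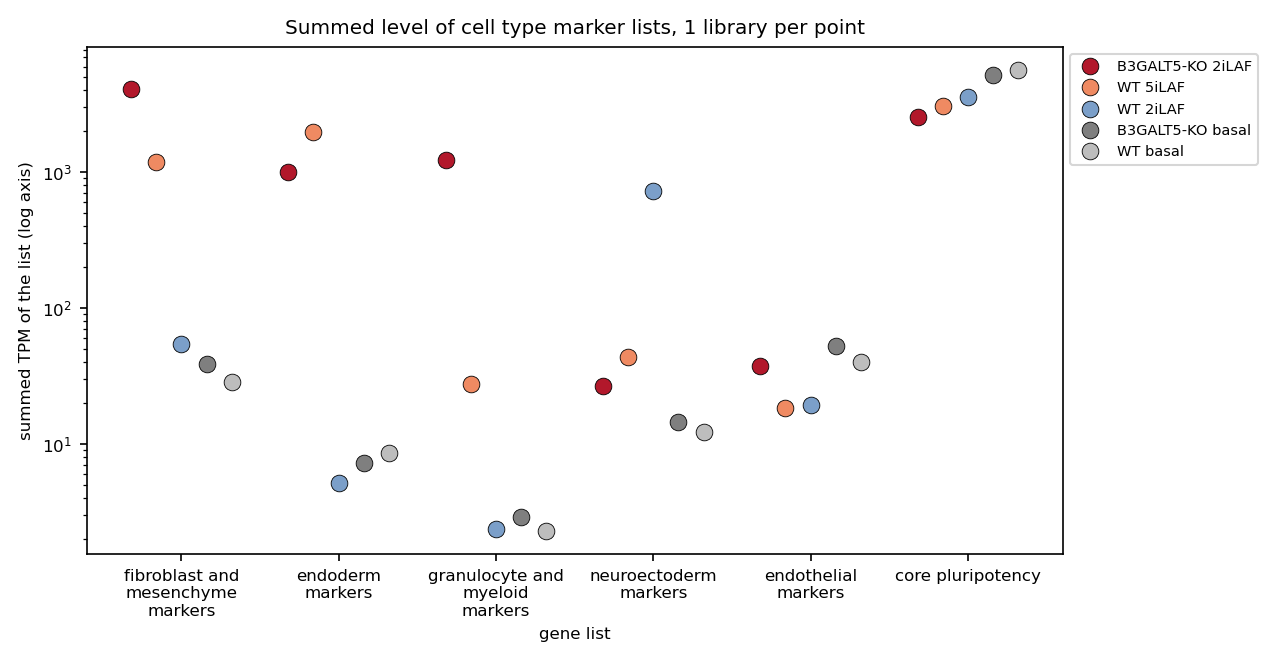
Summed TPM (log axis) of 5 cell type marker lists and of the core pluripotency genes, with 1 point per library. Fibroblast and endoderm lists are high in B3GALT5-KO 2iLAF and WT 5iLAF, the granulocyte list in B3GALT5-KO 2iLAF at 1237 TPM, and the neuroectoderm list in WT 2iLAF at 729 TPM.

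The genes whose profiles over the 5 libraries were most like each member were found by the root mean square difference of log2(TPM + 1), each gene centred on its own mean. For KLF2 they were CDKN2B, which encodes a CDK inhibitor (0.14), CR1L (0.15) and FILIP1L (0.16). CDKN2B stood at 25.3 TPM in B3GALT5-KO 2iLAF and 11.9 TPM in WT 5iLAF, and at or below 0.05 TPM elsewhere. For KLF4 they were STOM, a membrane scaffold protein (0.10), CRABP2, a retinoic acid carrier (0.21), and FIGNL2 (0.23). CRABP2 shared the order with WT 2iLAF first, at 516 TPM in B3GALT5-KO 2iLAF, 470.0 in WT 5iLAF, 1054 in WT 2iLAF, 148 in B3GALT5-KO basal and 101 in WT basal. For KLF5 they were PARVA, a focal adhesion protein (0.08), RIN2 (0.11) and MEG9 (0.11), for KLF6 NFIX (0.07), POTEI (0.08) and PDCL3P4 (0.10), and for TBX3 LOC283299 (0.07), CSNK1A1L (0.08) and NEUROG1 (0.09). The low DPPA3 was nearest GRAP (0.07), RAP2C (0.10) and SNORA104 (0.10), and ESRRB nearest TMEM61 (0.03), TTLL1 (0.04) and TIGD1 (0.04). Between members, KLF5 and KLF6 were closest, at 0.21, and KLF6 and TBX3 stood at 0.39. KLF2 and KLF4 were far apart, at 2.16. With 5 libraries, many genes share such a profile. On the TPM + 1 scale, genes of unlike level and unlike fold change can also lie close together. NFIX stood at 6.09 TPM in B3GALT5-KO 2iLAF and 0.13 TPM in B3GALT5-KO basal, where KLF6 stood at 97.6 and 14.9 TPM. TTLL1 stood at 6.87 and 16.5 TPM in the same libraries, where ESRRB stood at 0 and 1.08 TPM.

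Start site windows of RefSeq were found for 8 of the 10 genes, 11 windows in all, since KLF5 has 2 and ESRRB 3. CpG content, given as observed over expected, was 1.01 in the KLF2 window, 0.93 in KLF4, 0.99 in KLF6 and 0.98 in the second KLF5 window, beside a median of 0.58 over 35116 windows of all genes. The first KLF5 window stood at 0.33. Windows of genes that stayed low stood at 0.65 in KLF17, 0.64 in DPPA5, 0.55 in DPPA3 and between 0.23 and 0.35 in ESRRB. KLF17 and DPPA5 lay above the all-gene median, while the first window of KLF5, which rose, lay below it. TBX3, which also rose, and ARGFX had no window. A link between CpG content and level was not tested. GC boxes were counted 6 times in KLF2, 4 in KLF4, 2 in KLF6, 2 in the second KLF5 window, 4 in KLF17, 3 in DPPA5, and 0 times in DPPA3, ESRRB and the first KLF5 window, and 45% of all windows held at least 1. GC boxes thus occur in windows of genes at the high and the low end of the levels.

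The CACCC box (CACCC or GGGTG, both strands) was absent from the KLF2, KLF4 and KLF6 windows and occurred 6 times in KLF17, where 59.9% of all windows held it. All other member windows held it too. The counts were 1 and 2 in KLF5, which rose, 1 each in DPPA3 and DPPA5, and 1, 2 and 4 in ESRRB. The loose form of the MEF2 motif occurred once in KLF2, as CTAAATTTAG starting 120 bases before the start site, and once in the first ESRRB window, against 2.73% of all windows. TTCNNNGAA, the core that STAT factors bind, occurred once, in the third ESRRB window, against 7.66% of all windows. A match is a stretch of letters, and binding was not measured.

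**Figure D5:**
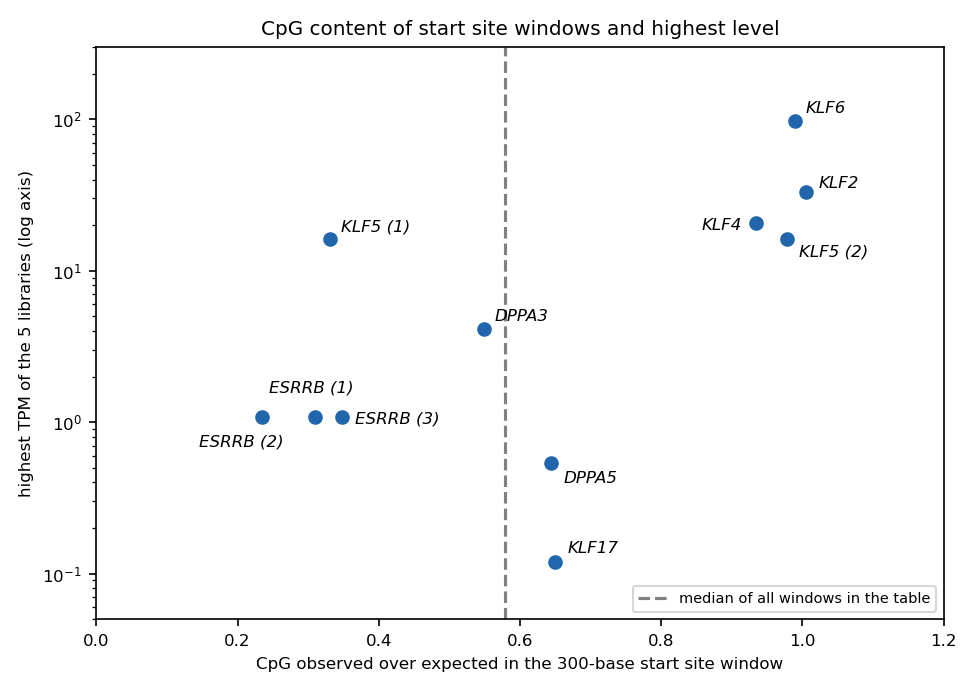
CpG observed over expected in each start site window (x axis) and the highest TPM of the gene in any library (y axis, log scale), with 1 point per window and window numbers where a gene has several. KLF2, KLF4, KLF6 and the second KLF5 window lie between 0.93 and 1.01, right of the dashed median of 0.58.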

How the data were processed

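Poly(A)-selected RNA of H9 cells was made into stranded TruSeq libraries, per the labels' protocols. Trimmomatic 0.39, Bowtie2 2.3.4.1, RSEM 1.2.28 and genome build hg19 are named in the submitters' processing notes. Neither the annotation nor the strand setting is stated there. The authors deposited TPM and FPKM values per gene and library, per the file headers. RSEM shares out ambiguous reads by estimation. TPM was used, and 18 empty columns were not. Among genes between 0.15 and 0.6 FPKM in 2 libraries, at most 6.66% shared a ratio within 0.05 on the log2 scale, so no depth could be read and no counting interval is given.

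Each library was its own group, and 7 pairs of libraries were compared as log2 ratios of TPM + 1, with a filter of 1 TPM in at least 1 library and a 2-fold size rule. No p-value was computed. Members, 17 further lists and the naming rule (every member, up to 4 genes per list by size of ratio or level, and the 3 nearest profiles) were chosen with earlier results of these data known. The higher counts of the primed marker list are not reported here. A few genes outside that rule are named for their role or their low level, after their values were seen. Alternatives were pseudocounts of 0.1 and 5 TPM, dropping the filter or raising it to 5 TPM, median-ratio and trimmed-mean scaling, size rules of 1.5-fold and 4-fold, and FPKM. The size rule was run on simulated data, with large changes planted in well expressed genes. That run does not bear on low genes or on ratios near 2-fold. Python 3.11.15, numpy 2.4.6, pandas 2.3.3 and matplotlib 3.10.9 were used.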

Additional observations from a re-analysis of the deposited data

Results flagged for a closer look

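The ratios of 2iLAF over basal medium for KLF6 and DPPA3 had opposite signs in the 2 genotypes. The log2 ratio of KLF6 was 2.63 in B3GALT5-KO (2iLAF over basal) and -0.0799 in WT. That of DPPA3 was 1.23 in B3GALT5-KO and -0.59 in WT. With 1 library per group, neither difference was tested. Both WT ratios were short of 2-fold, and that of KLF6 was 0.0913 with median-ratio scaling, 0.0861 with trimmed-mean scaling and 0.0099 in FPKM, so its sign depends on the scaling.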

How the results depend on the processing

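Of 630 recomputed member ratios, 595 kept their side of the size rule, 27 dropped below it and 8 passed it. The sign changed in 9, of which 0 had passed the size rule, and their size was at most 0.0799 as given and 0.0913 under the alternative. Of 126 recounts of members, 110 stayed within 1.5 times the count given, and scaling and dropping the filter changed none beyond that. The 1 member lower in B3GALT5-KO 2iLAF over B3GALT5-KO basal became 0 with a pseudocount of 5 TPM, a filter of 5 TPM, a 4-fold rule or FPKM. The 1 member higher in B3GALT5-KO 2iLAF over WT 5iLAF became 0 with a pseudocount of 5 TPM or a 4-fold rule and 2 with a 1.5-fold rule. The 1 member lower in B3GALT5-KO 2iLAF over WT 2iLAF, and the 1 in WT 5iLAF over WT 2iLAF, became 2 with a pseudocount of 0.1 TPM and 0 with a 4-fold rule, which also left 3 of the 5 higher in WT 5iLAF over WT 2iLAF. Counts of 0 lower became 1 for WT 5iLAF over WT basal and B3GALT5-KO basal over WT basal with a pseudocount of 0.1 TPM, and 1 for WT 2iLAF over WT basal and B3GALT5-KO basal over WT basal with a 1.5-fold rule. A larger pseudocount, filter or fold lowers counts by construction. Over all genes, counts ranged from 0.19 to 0.544 times those given with a pseudocount of 5 TPM, from 1.21 to 3.15 times with 0.1 TPM, from 0.601 to 0.829 times with a filter of 5 TPM, from 0.542 to 0.881 times with FPKM, from 1.63 to 4.57 times with a 1.5-fold rule and from 0.067 to 0.373 times with a 4-fold rule. Of genes past the rule in WT 2iLAF over WT basal, 40.2% were higher as deposited and 54.0% after median-ratio scaling, which moved the all-gene median of -0.13 to 0.00. No paired analysis was possible because each group holds 1 library. Unknown depth limits what can be said of genes under about 1 TPM.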
